A study of Mus musculus with 16 samples.

Results

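The hearts compared here came from C57BL/6J mice under pressure overload and from sham-operated mice, all injected with vehicle and none with the kinase inhibitor of the study. The comparison was defined as the 4 TAC-Veh libraries against the 4 Sham-Veh libraries, 8 of the 16 libraries of the series, over every gene that reached 10 normalized counts in 4 or more of the 16. That rule kept 13331 of 22372 protein-coding genes, and 9041 were not tested.

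Pressure overload was produced by transverse aortic constriction (TAC), a suture tied around the aortic arch between the brachiocephalic and left common carotid arteries. The sham mice had the same thoracotomy without the suture. The mice were male, carried no transgene or deletion, and were 10 to 12 weeks old when the experiment began. Intraperitoneal injections of the vehicle, a solution of dextrose with DMSO, ran from day 1 to day 60 after surgery, and messenger RNA was then sequenced from a piece of the ventricles of each mouse. The other 8 libraries, Sham-THZ1 and TAC-THZ1, came from mice given THZ1, a covalent inhibitor of the transcription kinases Cdk7, Cdk12 and Cdk13, and they enter below only through the residual variance of the fit and where the 2 effects of TAC are compared.

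A ventricle that ejects against a raised pressure thickens because its cardiomyocytes enlarge, and these cells return to genes used by the fetal ventricle, such as those for the natriuretic peptides, beta-myosin and skeletal actin. Stretched and injured myocardium also activates fibroblasts, which lay down collagen and the glycoproteins and proteoglycans that organize it. The healthy adult heart burns mainly fatty acids, and hypertrophied hearts are known for a greater reliance on glucose.

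The reads recovered from the deposited values numbered 24.2 to 35.8 M (mega) per vehicle library. The size factors of the authors put the libraries on 1 scale, called normalized counts below, and each library is named by its group and replicate number, as in TAC-Veh 1. A piece of ventricle holds many cell types, and in such bulk RNA fewer cells of a type and less RNA per cell cannot be told apart. The ventricular label fitted the markers: the 10 cardiomyocyte genes summed to between 766051 and 1516201 normalized counts in every vehicle library, the atrial genes Sln, Myl7 and Bmp10 did not reach the filter, the other 3 genes of the atrial list (Myl4, Tbx5 and Kcnj3) did, with a list sum of 2482 to 3073 in Sham-Veh and 626 to 1140 in TAC-Veh, and 4 genes of lung epithelium summed to at most 2.35. The recovered reads of replicates differed by more than counting noise, with a chi-square per degree of freedom of 4.77 to 7.82 between Sham-Veh libraries and 53.1 to 98.3 between TAC-Veh libraries.

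Genes that rose and genes that fell with TAC were similar in number. With limma on log2(normalized count + 1), 2857 genes rose at an adjusted p under 0.05, which is 21.4% of those tested, and 3146 fell, which is 23.6%, so that 45.0% were called in either direction. The counts of list members given below stand beside these shares. On this scale the change of a gene with few counts is understated. With the 8 vehicle libraries fitted alone, so that the THZ1 groups did not enter the residual variance, 2290 genes rose and 2444 fell. At least 2-fold higher, with the same adjusted p, were 619 genes (4.64%), and 449 were at least 2-fold lower (3.37%). The values of the 4 TAC-Veh libraries lay entirely above those of the 4 Sham-Veh libraries in 18.2% of all tested genes and entirely below in 19.1%. Of the genes that were not called, 7328 in all, 5367 had a 95% confidence interval that stayed within 1.5-fold in both directions. The median log2 fold change over all genes was -0.003, and 47.6% of the called genes rose. That share was 59.7% when libraries were instead scaled to their total outside the mitochondrial genome, so the balance of rises and falls depends on the scaling.

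**Figure D1:**
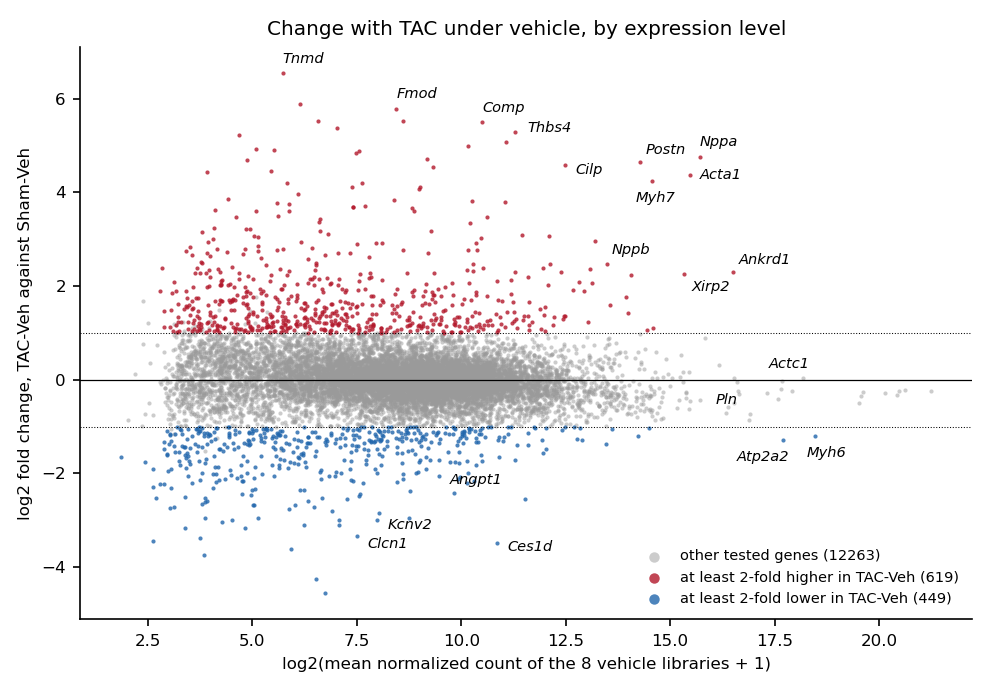
Change with TAC under vehicle for the 13331 tested genes. The horizontal axis gives the log2 of the mean normalized count of the 8 vehicle libraries plus 1, and the vertical axis the log2 fold change of TAC-Veh against Sham-Veh; red points are the 619 genes at least 2-fold higher, blue points the 449 at least 2-fold lower, and dotted lines mark 2-fold. The rises reach further than the falls, with 63 genes at a log2 fold change of 3 or more and 14 at -3 or less.

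The genes that rose took a larger share of the RNA. Outside the mitochondrial genome, the 619 genes that were at least 2-fold higher took 1.57% ± 0.149 of normalized counts in Sham-Veh and 7.35% ± 1.94 in TAC-Veh (SD, n = 4 each). The 448 nuclear genes that were at least 2-fold lower went from 6.71% ± 0.285 to 3.06% ± 0.897. The 10 genes with the largest gains in mean count, among them Nppa, Ankrd1, Acta1, Xirp2, Myh7 and Postn, went from 0.735% ± 0.0882 to 4.00% ± 0.851. The 10 with the largest losses, led by Myh6 and Atp2a2, went from 8.97% ± 0.338 to 4.97% ± 0.962. The 15 genes with the largest rises by fold change went from 0.0563% ± 0.0141 to 1.57% ± 0.508. In each of these groups the genes were chosen by the contrast described, so the shares are a description.

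Natriuretic peptides and their processing split in direction. Nppa, which encodes atrial natriuretic peptide, a hormone that lowers blood volume and pressure, stood at 4544, 2743, 2788 and 3172 normalized counts in the Sham-Veh libraries and at 199788, 112704, 54193 and 49207 in the TAC-Veh libraries (chr4:147374831-147376188, + strand, mm9). The lowest TAC-Veh value lay far above the highest Sham-Veh value, and TAC-Veh 1 was the highest. The change was 4.76 on the log2 scale (SE 0.40, limma adjusted p = 3.75e-07), from a mean of 3312 ± 844 to 103973 ± 70081 (SD, n = 4). Its neighbour Nppb, which encodes B-type natriuretic peptide, was at 3822, 2775, 3839 and 3344 in Sham-Veh and 27977, 21919.9, 15636 and 13076 in TAC-Veh (chr4:147359897-147361314, + strand). The groups did not overlap, in the same library order as for Nppa, and the log2 fold change was 2.46 (SE 0.21, adjusted p = 3.75e-07). Corin, the membrane protease that cuts the precursor of atrial natriuretic peptide, moved the other way, from 5907 ± 478 to 2969.7 ± 273, a log2 fold change of -0.99 (adjusted p = 2e-06). Npr3, the clearance receptor of these peptides, rose by 0.69 on the log2 scale (adjusted p = 0.00067).

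The promoters of 4 genes are shown because these genes, all expressed by stressed myocytes, rose together, and the letters before their start sites can then be compared. Each line is the 150 bases before the start site in RefSeq for GRCm38.p6, another build than the mm9 of the counts, written 5′ to 3′ on the gene's own strand. Capitals mark a match on either strand to the MCAT element CATTCC, the GATA element AGATAA, the CArG box or the TATA box TATAAA.
Nppa (chr4:148000572-148000721, + strand): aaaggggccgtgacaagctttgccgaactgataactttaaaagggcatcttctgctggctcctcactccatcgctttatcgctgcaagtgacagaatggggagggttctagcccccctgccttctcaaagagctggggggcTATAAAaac
Nppb (chr4:147985750-147985899, + strand): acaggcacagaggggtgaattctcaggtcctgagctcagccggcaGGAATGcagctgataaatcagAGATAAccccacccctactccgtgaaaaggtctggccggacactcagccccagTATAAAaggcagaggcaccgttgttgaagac
Acta1 (chr8:123894776-123894925, - strand): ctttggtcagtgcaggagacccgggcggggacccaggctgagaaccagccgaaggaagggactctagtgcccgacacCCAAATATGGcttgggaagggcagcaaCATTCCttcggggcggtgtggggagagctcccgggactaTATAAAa
Ankrd1 (chr19:36119845-36119994, - strand): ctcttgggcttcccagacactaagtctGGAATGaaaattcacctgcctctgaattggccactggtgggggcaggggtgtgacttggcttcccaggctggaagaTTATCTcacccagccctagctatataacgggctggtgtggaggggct
Nppb held an MCAT match 105 bases before the start, a GATA match at 84 and a TATA box at 31. Acta1 held a CArG box at 73, an MCAT match at 46 and a TATA box at 7. Ankrd1 held an MCAT match at 123 and a GATA match at 47, and Nppa, of the letters searched, only a TATA box, at 9. The GATA search took AGATAA alone. The variant TGATAA, which stands unmarked in the Nppa and Nppb lines, was not searched. Over all 32851 mouse promoters of the RefSeq table, each 300 bases long, MCAT occurred in 14.7%, GATA in 11.2%, the TATA box in 13.6% and the CArG box in 1.63%. These are matches of letters in a window, not measured binding sites. The same shares among the genes that rose were not compared, since the table held an entry for 10530 of the 13331 tested genes, under 80%.

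Paired isoforms of the contractile proteins shifted against each other. Myh6, the fast alpha-myosin heavy chain of the adult mouse ventricle, was at 468904, 528707, 489626 and 517185 in Sham-Veh and 176848, 162375, 245735 and 317577 in TAC-Veh (chr14:55560758-55585764, - strand). The groups did not overlap, and the log2 fold change was -1.20 (SE 0.19, adjusted p = 0.000101). Myh7, the slow beta-myosin heavy chain next to it on the same chromosome, was at 2787, 2268, 1251 and 2729 in Sham-Veh and 75096, 49604, 16757 and 44752 in TAC-Veh (chr14:55589525-55613471, - strand). TAC-Veh 3 was the lowest of its group, still well above every Sham-Veh value, and the gene rose by 4.24 on the log2 scale (SE 0.47, adjusted p = 3.98e-06). Per kb of exon, Myh7 made up 0.336% ± 0.109 of Myh6 plus Myh7 in Sham-Veh and 14.2% ± 8.68 in TAC-Veh, with 24.1%, 18.6%, 4.84% and 9.51% in the 4 TAC-Veh libraries (exact permutation test, two-sided, p = 0.0286, the smallest that 4 against 4 allows). The 2 genes are near-identical over long stretches, so short reads may have been split between them.

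Skeletal alpha-actin followed the same course. Acta1 was at 5549, 2903, 3931 and 4262 in Sham-Veh and 60565, 92949, 115230.2 and 77852 in TAC-Veh (chr8:126415669-126418651, - strand). Here TAC-Veh 3 was the highest and TAC-Veh 1 the lowest, unlike Nppa, and the groups did not overlap. The rise was 4.38 on the log2 scale (SE 0.23, adjusted p = 1.53e-08). Actc1, the cardiac alpha-actin, had a mean of 209073 ± 11004 in Sham-Veh and 208600.4 ± 34830 in TAC-Veh, with a log2 fold change of -0.02 and a 95% interval of -0.33 to 0.30, and under quantile normalization its value was 0.41. Per kb of exon, Acta1 went from 2.18% ± 0.576 of Acta1 plus Actc1 to 31.7% ± 6.52 (exact permutation p = 0.0286). These actins too share long stretches of sequence.

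Among 9 myosin and thick filament genes 2 rose and 3 fell, and among 12 actins, troponins and tropomyosins 3 rose and 2 fell. Over all tested genes 21.4% rose and 23.6% fell, so these counts alone do not set the 2 lists apart. Without TAC-Veh 1 the falls of the myosin list were 5, and quantile normalization gave 5 rises in the actin list. Tnni3, the inhibitory troponin of the adult heart, fell from 102290 ± 2806 to 63715 ± 13230, and Myh7b, another myosin heavy chain of the ventricle, fell 2.11-fold (adjusted p = 0.000157). Of 20 other sarcomere proteins 7 rose and 6 fell, with 3 falls without Sham-Veh 3, Sham-Veh 4 or TAC-Veh 2 and 11 rises under quantile normalization. Synpo2l, an actin-bundling protein of the Z-disc, rose from 3273 ± 199 to 12309 ± 2535 (log2 fold change 1.89, adjusted p = 2.82e-07). Actn2, the actinin of the Z-disc, was at 41206 ± 2581 and 40228 ± 4439, with a 95% interval of the log2 fold change of -0.22 to 0.15.

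**Figure D2:**
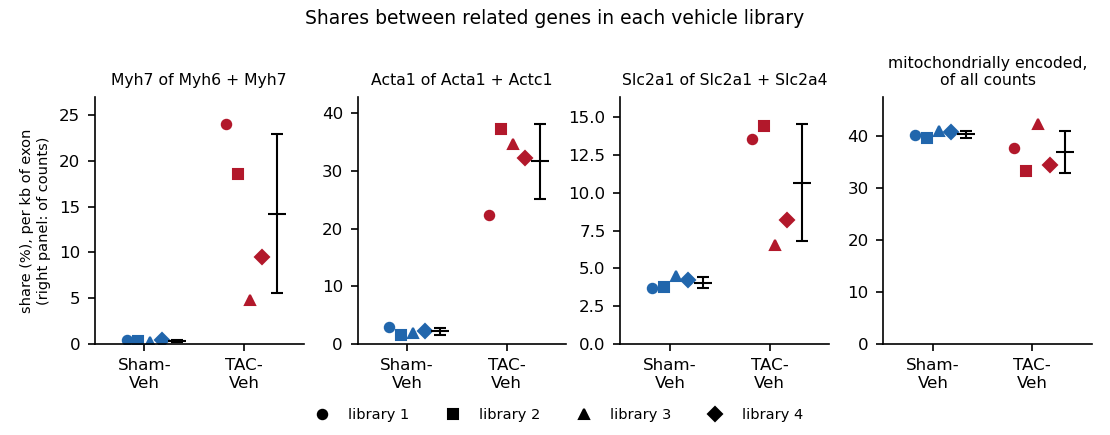
Shares between related genes in each vehicle library. The vertical axes give, in percent per kb of exon, the share of Myh7 in Myh6 plus Myh7, of Acta1 in Acta1 plus Actc1 and of Slc2a1 in Slc2a1 plus Slc2a4, and in the right panel the share of all counts from the mitochondrial genome; points are libraries and bars the mean ± SD of 4. TAC-Veh lies above Sham-Veh in all 4 libraries for the first 3 panels, and the groups overlap in the right panel.

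Proteins that sense strain at the Z-disc and the titin filament rose in 9 of 11 genes, with a median log2 fold change of 0.91. Ankrd1, the cardiac ankyrin repeat protein of titin and the nucleus, was at 44102, 28613, 28285 and 25500.4 in Sham-Veh and 181007, 163311, 135102 and 134822 in TAC-Veh (chr19:36186455-36194334, - strand). The groups did not overlap, Sham-Veh 1 lay above the other 3 sham libraries, and the log2 fold change was 2.30 (SE 0.19, adjusted p = 2.82e-07). Its relatives Ankrd23 and Ankrd2 rose by 1.77 and 3.04 on the log2 scale (adjusted p = 2.06e-07 and 1.45e-05). Xirp2, an actin-binding repeat protein of the intercalated disc, was at 16669, 12211, 13562 and 13778 and then 62941, 92832, 57256 and 58671. TAC-Veh 2 was the highest and all 4 lay above Sham-Veh, a rise of 2.25 on the log2 scale (adjusted p = 6.45e-08). Fhl1, a LIM protein of the titin spring, rose by 1.91 (adjusted p = 1.26e-06), whereas its relative Fhl2 had a log2 fold change of -0.26 (adjusted p = 0.157) that passed the threshold without TAC-Veh 1, at -0.41. Rcan1, a feedback inhibitor of the phosphatase calcineurin, went from 1351 ± 145 to 7611 ± 1668, although 5 of the 10 calcineurin and NFAT genes fell (2 when scaled to the total outside the mitochondrial genome) and Nfatc4 was the only other one that rose.

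Most ion channel genes fell. Of 22 potassium channel genes 16 fell and 1 rose, with a median log2 fold change of -0.78, and of 14 sodium, chloride, pacemaker and T-type channel genes 10 fell and 1 rose, with a median of -0.94. Kcnj3, a subunit of the muscarinic potassium channel, was at 1804, 2089, 2011 and 2217 in Sham-Veh and 312, 315, 691 and 608 in TAC-Veh (chr2:55288381-55450556, + strand). Every TAC-Veh value was under the lowest Sham-Veh value, TAC-Veh 1 and 2 were the lowest, and the log2 fold change was -2.16 (SE 0.21, adjusted p = 1.16e-06). Its partner subunit Kcnj5 fell 3.31-fold (adjusted p = 5e-06). The transient outward current, which starts repolarization in the mouse, lost message for both its pore Kcnd2, from 705 ± 58.1 to 240.4 ± 59.2, and its accessory subunit Kcnip2, from 3733 ± 335 to 1466 ± 420.1 (adjusted p = 1.27e-06 and 3.32e-06). Kcnh2, the rapid delayed rectifier, fell 2.46-fold, Kcnj2, which sets the resting potential, 2.32-fold and Kcnq1 1.53-fold. Kcnv2, a silent modifier subunit, was the steepest of the list, 6.77-fold lower. Kcne4, an inhibitory accessory subunit, was the 1 that rose, by 1.07 (adjusted p = 6.44e-05).

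Scn4b, an accessory subunit of voltage-gated sodium channels, was at 1777, 1239, 1279 and 1356 in Sham-Veh and 107, 335, 807 and 974 in TAC-Veh, with a log2 fold change of -1.77 (adjusted p = 0.00524). TAC-Veh 1 was far below TAC-Veh 4, and all 4 were below Sham-Veh. Cacna1h, a T-type calcium channel, fell 4.24-fold and the pacemaker channel Hcn4 3.22-fold (adjusted p = 3.4e-06 and 0.000567).

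Calcium handling genes fell more often than they rose. Of 21 genes 10 fell and 4 rose, with a median log2 fold change of -0.29. Atp2a2, the calcium pump SERCA2 of the sarcoplasmic reticulum, was at 271781, 312899, 300564 and 313269.6 in Sham-Veh and 96390.1, 92706, 141695 and 173886 in TAC-Veh (chr5:122903531-122952183, - strand). The groups did not overlap, with TAC-Veh 1 and 2 lowest, and the log2 fold change was -1.30 (SE 0.18, adjusted p = 2.8e-05). Its inhibitor phospholamban, Pln, fell less, 1.79-fold against 2.37-fold for the pump. The release channel Ryr2 fell 1.8-fold, the L-type channel Cacna1c 1.47-fold and the histidine-rich calcium binder Hrc 1.98-fold (adjusted p = 1.37e-05, 3.7e-05 and 5.37e-05). The small calcium-binding proteins S100a1 and Sri rose by 0.50 and 0.51 on the log2 scale. At the intercalated disc, where 7 of 16 genes fell and 2 rose, the desmosomal cadherin Dsg2 fell 2.46-fold (adjusted p = 2.06e-06). At the disc 1 rise in place of 2 was called when any of the 4 Sham-Veh libraries, TAC-Veh 1 or TAC-Veh 2 was left out.

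**Figure D3:**
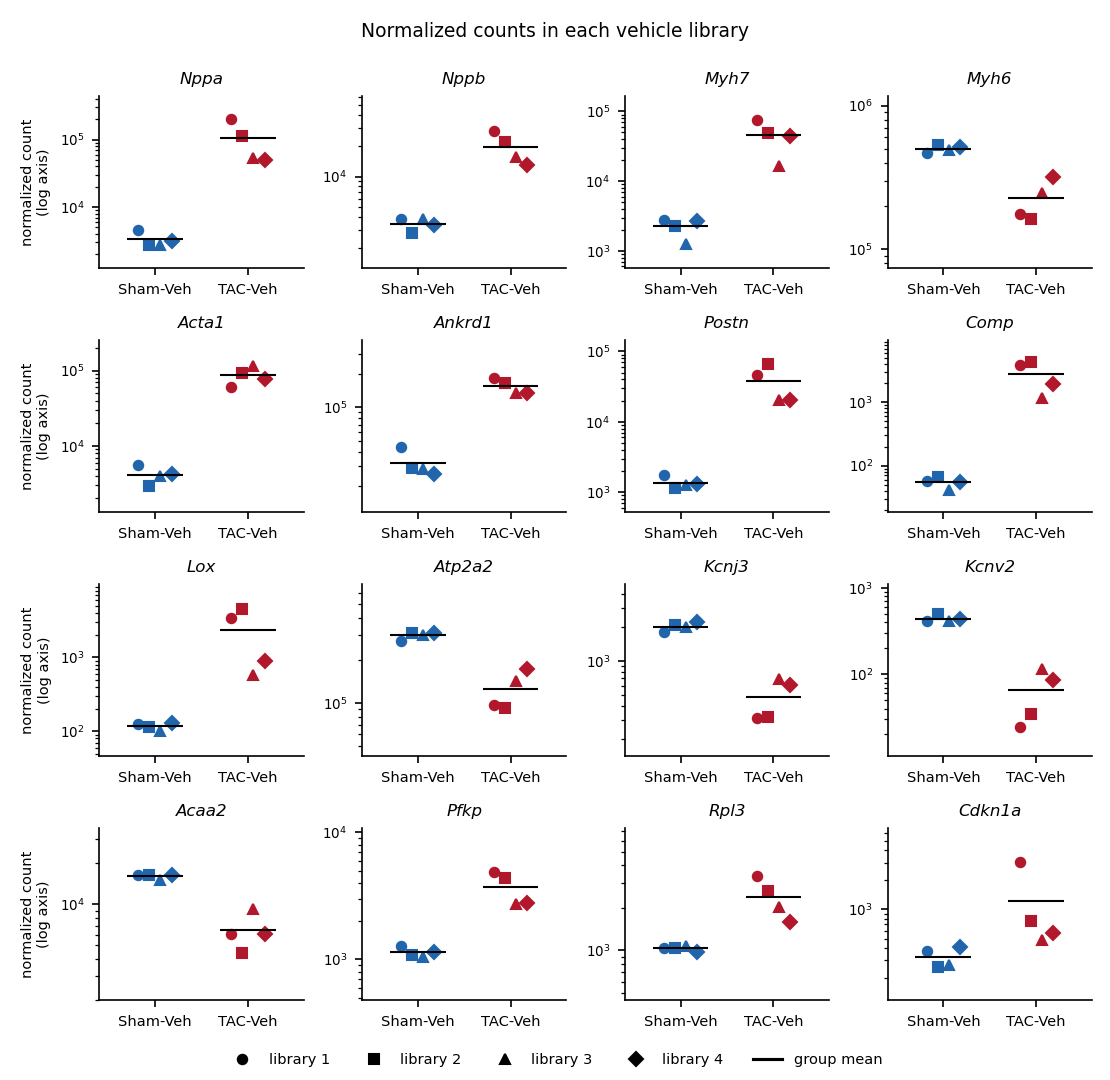
Normalized counts of 16 genes in the 8 vehicle libraries, on log axes that differ between panels. Each point is a library, its shape gives the replicate number within the group, and the line is the mean of 4. In every panel all TAC-Veh points lie to 1 side of all Sham-Veh points, and for Postn, Comp, Lox, Kcnj3 and Kcnv2 TAC-Veh 1 and 2 lie further from Sham-Veh than TAC-Veh 3 and 4.

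Most genes of the extracellular matrix lists rose. Fibrillar collagens rose in 6 of 8 genes, other collagens in 13 of 21, small leucine-rich proteoglycans in 7 of 9, matricellular proteins in 16 of 20, elastic fibre and latent TGF-beta binding proteins in 13 of 17, and enzymes of collagen processing and cross-linking in 18 of 18. The median log2 fold changes of these lists were 0.88, 0.65, 1.25, 1.96, 1.20 and 1.02, beside -0.003 over all genes. Col3a1, a fibrillar collagen of the interstitium, was at 6294, 4833, 5609 and 5835 in Sham-Veh and 16234, 31689, 10475 and 15083 in TAC-Veh (chr1:45368383-45406551, + strand). TAC-Veh 2 was the highest, the groups did not overlap, and the log2 fold change was 1.59 (adjusted p = 5.91e-05). Col1a1, the main chain of type I collagen, rose less, from 1538 ± 218 to 3595 ± 1659.6 (1.11 on the log2 scale, adjusted p = 0.00108). Some other collagens had larger fold changes, although the median of their list was the lower one. Col12a1, a fibril-associated collagen, went from 37.1, 32.9, 30.9 and 36.8 to 1449.6, 2069, 386 and 627, which is 32.9-fold by the means, and Col8a1, a short-chain collagen, from 872 ± 92.6 to 7882 ± 3643.

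Several proteins that organize the matrix or signal from it also rose by large factors. Postn, periostin of activated fibroblasts, was at 1721, 1141, 1241 and 1289 in Sham-Veh and 46489, 65868, 20159 and 20098 in TAC-Veh (chr3:54165031-54194961, + strand). Comp, a cartilage and tendon glycoprotein, was at 57.3, 65, 40.7 and 55.1 and then 3897, 4338, 1153 and 1936. In both genes all TAC-Veh values lay above Sham-Veh and TAC-Veh 2 was the highest. Cilp, a matrix protein first described in cartilage, rose 24.7-fold and Wisp2 of the CCN family 10.4-fold (adjusted p = 6.45e-08 and 3.75e-07). Spp1, osteopontin, had TAC-Veh values of 613, 459.8, 90.2 and 106 against a Sham-Veh mean of 13.3 ± 5.75. Among the proteoglycans Fmod, which binds collagen fibrils, rose most, and Bgn, which also binds TGF-beta, went from 5883 ± 485 to 28627 ± 8500.4. Not all members followed: Thbs2 fell 1.64-fold, the fibulin family member Efemp1 3.59-fold and Col6a6 7-fold (adjusted p = 0.000887, 3.5e-05 and 1.19e-05).

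Every one of the 18 collagen-processing enzymes rose, from Plod1, a lysyl hydroxylase, at 0.17 on the log2 scale to Lox at 3.82. The call of Plod1 was lost without Sham-Veh 2 and without TAC-Veh 4 (adjusted p = 0.0723 and 0.0516). Lox, the lysyl oxidase that cross-links collagen and elastin, was at 126, 114, 102 and 129.8 in Sham-Veh and 3389.6, 4471, 573 and 894 in TAC-Veh. TAC-Veh 1 and 2 were several times higher than TAC-Veh 3 and 4, which themselves lay well above Sham-Veh, and the groups did not overlap (adjusted p = 7.71e-06). Its paralog Loxl3 rose 7.6-fold. Timp1, an inhibitor of metalloproteinases, was at 52, 20.1, 71.6 and 44.8 and then 963, 2142, 413 and 387, with a log2 fold change of 4.11 (adjusted p = 5.69e-06). Of 23 metalloproteinases and inhibitors 15 rose and 1 fell, the membrane-bound Mmp15, 2.83-fold (adjusted p = 3.64e-05).

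**Figure D4:**
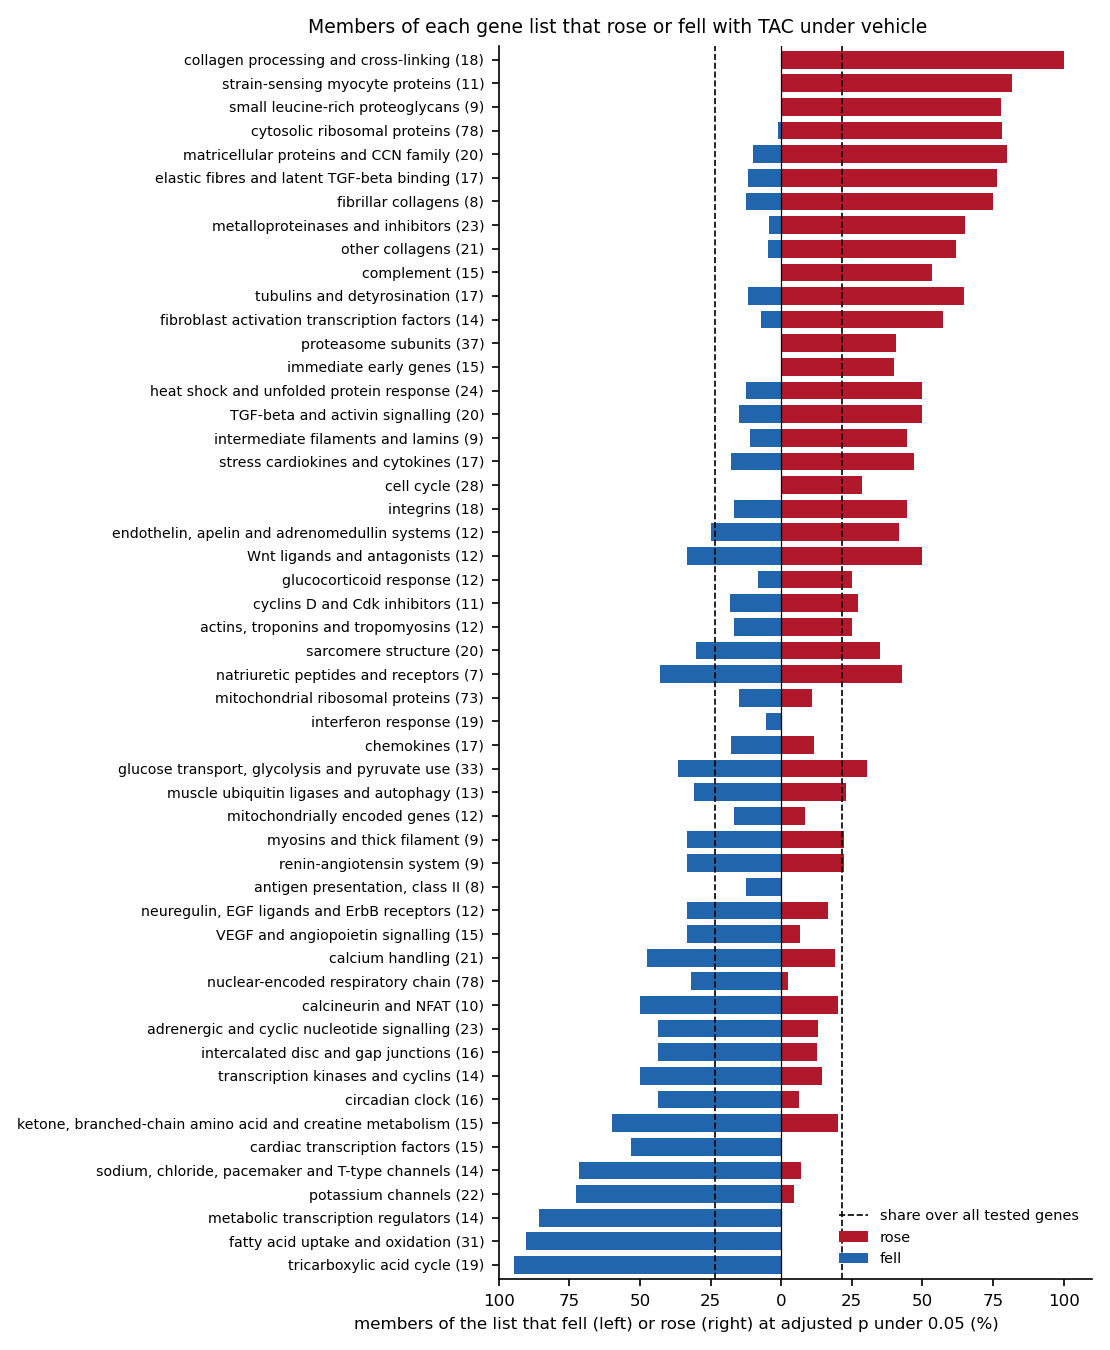
Share of each of 52 gene lists that rose (red, to the right) or fell (blue, to the left) with TAC under vehicle at an adjusted p under 0.05, in percent of the tested members, whose number stands in parentheses. Dashed lines mark the shares over all tested genes, 21.4% for rises and 23.6% for falls; matrix lists lie toward the top, beside strain-sensing and ribosomal proteins, and the tricarboxylic acid cycle, fatty acid and metabolic regulator lists at the bottom.

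A set of genes had almost no reads in sham hearts. In 15 of the 619 genes no Sham-Veh library held more than 3 reads. Tnmd, a tendon membrane glycoprotein, had 0 reads in all 4 Sham-Veh libraries and 166, 129, 71.3 and 47.7 normalized counts in TAC-Veh, at least 35.4-fold higher than the mean of the counts that 3 reads would give in each Sham-Veh library. Chi3l1, a chitinase-like glycoprotein, also had 0 reads in Sham-Veh and 90.5, 73.6, 14.9 and 17 in TAC-Veh, at least 16.8-fold higher. Sprr1a, a stress-induced cornified envelope protein, was at least 63.6-fold higher, and the EGF receptor ligand Ereg at least 28.6-fold. In these 4 genes TAC-Veh 3 and 4 were the lower pair. Scx, a transcription factor of tendon progenitors, rose from 73.9 ± 11.1 to 291 ± 86.7 (adjusted p = 1.06e-06), and all 4 tested genes of a cartilage and tendon list rose, while its members Acan, Col2a1 and Chad did not reach the filter. Of the 4, Tnmd and Chodl had 0 and 1 reads over all Sham-Veh libraries. Genes with so few sham reads pass the filter only where another group is higher, so the counts of 15 and of 4 are descriptions.

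Several secreted signals rose. Tgfb2 and Tgfb3, ligands of the TGF-beta family, rose by 1.94 and 1.18 on the log2 scale (adjusted p = 3.75e-07 and 4.4e-06). Ctgf, a matricellular growth factor, was at 1726, 1967, 1434 and 2184 in Sham-Veh and 29946, 22367, 6875 and 8612 in TAC-Veh. Its groups did not overlap, with TAC-Veh 3 and 4 lowest (log2 fold change 2.97, adjusted p = 5.94e-06). Gdf15, a circulating stress cytokine, went from 25.5, 11.2, 20.3 and 14.9 to 344, 652, 168 and 325, a mean rise of 20.7-fold (adjusted p = 9.59e-07). Hbegf, a ligand of the EGF receptor, rose 4.3-fold, and Edn3, an endothelin, 7.44-fold (adjusted p = 8.5e-07 and 3.86e-07). Of 12 Wnt ligands and antagonists 6 rose and 4 fell, 2 of them without Sham-Veh 2, and the risers included the secreted antagonists Dkk3 at 14-fold, Frzb at 9.71-fold and Sfrp1 at 4.51-fold.

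Several receptors of neurohormones fell. The alpha-1 adrenergic receptors Adra1b and Adra1a fell 3.33-fold and 2.48-fold, the beta-1 receptor Adrb1 1.64-fold, and the type 1 angiotensin receptor Agtr1a 2.2-fold (adjusted p = 1.78e-06, 4.02e-05, 0.00438 and 7.69e-06). Ace, the enzyme that makes angiotensin II, moved the other way, from 2022, 1891, 1811 and 2038 to 6208, 6472, 4011 and 5644, a 2.88-fold rise with no overlap (adjusted p = 1.71e-07). Angpt1, a ligand that stabilizes vessels, fell 4.05-fold (adjusted p = 3.4e-06). Of 15 cardiac transcription factors 8 fell and the other 7 were not called. Tbx5, a T-box factor, fell 2.27-fold and Mef2a, a MADS-box factor, 1.6-fold. Among 14 factors of fibroblast activation 8 rose, 5 without TAC-Veh 2, and Meox1, a homeobox factor of activated fibroblasts, went from 344 ± 49.4 to 1898 ± 924 (adjusted p = 3.94e-06).

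Genes of fatty acid use and of the tricarboxylic acid cycle fell almost throughout. Of 31 genes of fatty acid uptake and oxidation 28 fell and the other 3 were not called, of 19 tricarboxylic acid cycle genes 18 fell, and of 14 regulators of mitochondrial metabolism 12 fell, with median log2 fold changes of -0.74, -0.49 and -0.57. Acaa2, the thiolase that ends a round of beta-oxidation, was at 16425, 16325, 15129 and 16494 in Sham-Veh and 6062, 4373, 9291 and 6089 in TAC-Veh. TAC-Veh 2 was the lowest and TAC-Veh 3 the highest, and none reached the Sham-Veh range (log2 fold change -1.37, adjusted p = 6.66e-06). Hadha, of the trifunctional protein, fell 1.78-fold, Cpt1b, which moves fatty acids toward the mitochondrion, 1.42-fold, and the lipoprotein lipase Lpl 1.64-fold. Fabp3, the cytosolic fatty acid binding protein, was at 41432, 25918, 39568 and 26239.6 in TAC-Veh and 30012 ± 1788 in Sham-Veh, which overlapped. Among the regulators Ppara, the fatty acid receptor, fell 1.57-fold and the coactivators Ppargc1a and Ppargc1b 1.63-fold and 2.33-fold (adjusted p = 0.00244, 0.011 and 0.000333). In the cycle, Sdha fell 1.74-fold and citrate synthase, Cs, 1.61-fold.

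Of 33 genes of glucose transport, glycolysis and pyruvate use 10 rose, 12 fell and 11 were not called. Pfkp, the platelet form of phosphofructokinase, was at 1286, 1079, 1056 and 1148 in Sham-Veh and 4913, 4360.2, 2726 and 2801 in TAC-Veh, without overlap (log2 fold change 1.65, adjusted p = 2.97e-06). The muscle form Pfkm fell 1.58-fold (adjusted p = 2.54e-05). The transporter Slc2a4, which responds to insulin, fell from 9577 ± 538 to 6030 ± 931, and Slc2a1, the basal transporter, rose from 409.8 ± 55.4 to 708 ± 220.5. Per kb of exon the share of Slc2a1 in both went from 4.07% ± 0.386 to 10.7% ± 3.89 (exact permutation p = 0.0286). Pfkfb1, which makes the activator of phosphofructokinase, fell 6.91-fold (adjusted p = 2.49e-06). Bdh1, which oxidizes the ketone beta-hydroxybutyrate, rose 2.06-fold, and Ppm1k, the phosphatase that activates branched-chain amino acid breakdown, fell 3.08-fold (adjusted p = 4.46e-05 and 3.75e-07).

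The respiratory chain itself fell less and unevenly. Of 78 nuclear-encoded subunits 25 fell, with a median log2 fold change of -0.22, and the list's median against the Sham-Veh mean was 0.15 in TAC-Veh 1, -0.50 in TAC-Veh 2, 0.01 in TAC-Veh 3 and -0.47 in TAC-Veh 4. Leaving out 1 library at a time gave 19 to 48 subunits that fell, the 48 without TAC-Veh 1. Ndufs1, a large subunit of complex I, fell from 19957 ± 384 to 12136 ± 1416 (adjusted p = 1.15e-05). The mitochondrial genome gave 40.3% ± 0.635 of counts in Sham-Veh and 36.9% ± 4.08 in TAC-Veh, where the groups overlapped (exact permutation p = 0.171). Only mt-Nd6, the 1 protein-coding gene on the light strand, was at least 2-fold lower among the mitochondrial genes, at 13087, 18386, 15585 and 19884 and then 7084, 5734, 10935 and 9255 (log2 fold change -1.05, adjusted p = 0.000188).

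Short genes and long genes shifted in opposite directions. This can bear on any gene or list, and 2 lists are described here. Among the 4448 tested genes with the shortest summed exons, 93 to 2818 bases, 28.0% rose and 15.2% fell, and among the 4444 with the longest, 4906 bases or more, 15.1% rose and 31.8% fell. The median log2 ratio to Sham-Veh of the short genes was 0.178, 0.0817, 0.143 and -0.0143 in the 4 TAC-Veh libraries, so TAC-Veh 4 stood apart. Cytosolic ribosomal proteins, of which 65 of 78 were among the short genes, rose in 61 of 78 and fell in 1, with medians of 0.80, 0.39, 0.44 and -0.05 in the same libraries. With each library's trend on exon length removed, an alternative chosen after the data had been seen, 51 ribosomal genes rose, and the nuclear respiratory chain genes that fell were 53 in place of 25. With the 8 vehicle libraries fitted alone, 32 ribosomal genes rose. The part of exon length in these changes was not tested further. The 1 ribosomal gene that fell was Rpl3l, the muscle form of ribosomal protein L3, from 5473 ± 189 to 2367 ± 820.4, and its ubiquitous paralog Rpl3 rose from 1041, 1042, 1064 and 977 to 3340.2, 2646, 2013 and 1580.1 (log2 fold change 1.16, adjusted p = 0.00011).

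Heat shock, proteasome and tubulin genes rose more often than they fell. Muscle ubiquitin ligase and autophagy genes did not, with 3 of 13 that rose and 4 that fell. Of 24 heat shock and unfolded protein response genes 12 rose and 3 fell. Of 37 proteasome subunits 15 rose and 22 were not called, with 26 rises when scaled to the total outside the mitochondrial genome and 9 with the 8 vehicle libraries fitted alone. The small heat shock protein Hspb1 rose from 1665 ± 158 to 4019.8 ± 379.8 (adjusted p = 4.49e-08), and the endoplasmic reticulum chaperone Hspa5 fell 1.37-fold (adjusted p = 0.000893). Of 17 tubulins and tubulin-modifying genes 11 rose and 2 fell, 1 without Sham-Veh 3, Sham-Veh 4 or TAC-Veh 2, and Des, desmin of the myocyte's intermediate filaments, rose from 41230.1 ± 1213 to 76667 ± 10024. Of 28 cell cycle genes 8 rose (28.6%, beside 21.4% of all tested genes) at a median of 0.60, but 4 rose without TAC-Veh 2, and edgeR called 14. Mki67, a marker of cycling cells, was at 153, 139.6, 143 and 132 and then 189, 330.3, 159 and 234, with an adjusted p of 0.0626, and 0.0300 without TAC-Veh 3. Cenpf, a centromere protein, ran against that list, from 483, 1003, 848 and 725 in Sham-Veh to 106, 105, 75.3 and 97.1 in TAC-Veh, with no overlap (-2.95 on the log2 scale, adjusted p = 5.05e-07). Cdkn1a, an inhibitor of cyclin-dependent kinases, was at 3080.3, 762, 485 and 578 in TAC-Veh and 328 ± 77.2 in Sham-Veh, with TAC-Veh 1 far above the others (adjusted p = 0.00999).

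Marker lists of cell types are given here beside the shares over all tested genes, 21.4% that rose and 23.6% that fell. The lists were chosen with earlier results of these data known, so their counts are a description. In the activated fibroblast list, Comp, Cilp and Cthrc1 are also among the 15 largest rises by fold change. Activated fibroblast markers rose in 7 of 8 genes at a median of 4.61 and summed to 3675 to 4895 in Sham-Veh and 32097 to 99233 in TAC-Veh. The exception was Acta2, smooth muscle actin, at 1809, 1541, 1577 and 2056 and then 1878, 1584, 1538 and 1643, which overlapped (95% interval of the log2 fold change -0.44 to 0.31). General fibroblast markers rose in 4 of 8, and the defining receptor Pdgfra had a log2 fold change of 0.25 (adjusted p = 0.0614) that passed the threshold at 0.30, 0.31 and 0.31 without Sham-Veh 1, TAC-Veh 2 or TAC-Veh 3. Cardiomyocyte markers fell in 5 of 10 at a median log2 fold change of -0.42, and the other 5 were not called. Their sum went from 1402507 to 1516201 in Sham-Veh to 766051 to 1066343 in TAC-Veh. That sum gives most weight to members with many counts, such as Myh6. Endothelial markers rose in 2 and fell in 2 of 10, near those shares. Only 1 rose without Sham-Veh 2, Sham-Veh 4 or TAC-Veh 2, and none of the 10 fell without TAC-Veh 1. Pericyte markers fell in 4 of 6, with Abcc9, also a subunit of the potassium channel of vascular mural cells and myocytes, down 2.33-fold. Glial markers fell in 2 of 4. The part of cell composition in the changes above was not tested.

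Few immune genes were called. Of 10 macrophage markers 3 rose (1 without Sham-Veh 4 or TAC-Veh 2, and 6 without TAC-Veh 1), with sums of 6661 to 8266 in Sham-Veh and 9431 to 11270 in TAC-Veh, and Lyz2, lysozyme of myeloid cells, rose 1.61-fold (adjusted p = 0.00372). None of the tested markers of neutrophils (4), B cells (4), mast cells (5), erythroid cells (5) or T cells (1) was called by limma, and edgeR and DESeq2 on the recovered reads called 0 as well. Whole-list sums in Sham-Veh and TAC-Veh were 50.9 to 98.1 and 121 to 277 for neutrophils, with a median log2 fold change of 1.34. They were 68.1 to 81.7 and 87.0 to 124 for B cells, and 6419 to 6995 and 7762 to 13462 for erythroid cells. Sums of mast cell and T cell markers overlapped. A missed threshold does not show that these markers stayed level. At an unadjusted p under 0.05 limma gave 2 mast cell and 2 erythroid markers and 0 of the others. Without TAC-Veh 4, 2 mast cell markers fell and 2 erythroid markers rose, and with the 8 vehicle libraries fitted alone all 5 erythroid and 2 neutrophil markers rose. Complement was the exception, with 8 of 15 genes that rose, and the initiator C1qa was at 1489, 1169.5, 1399.6 and 1276 and then 2592, 2943, 2293 and 2004, which did not overlap (adjusted p = 0.000868). Of 19 interferon response genes 1 fell and 18 were not called, but 2 rose without TAC-Veh 1 and none of the 19 fell without Sham-Veh 1, Sham-Veh 2 or TAC-Veh 1. Of 17 chemokines 3 fell and 2 rose, 4 when TAC-THZ1 1, 2 or 4 was left out of the shared variance. Ccl11, an eosinophil chemokine, was among the steepest falls of all genes, from 134 ± 25.9 to 14.1, 8.58, 22.8 and 16.2 (log2 fold change -3.09, adjusted p = 4.33e-06).

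The TAC-Veh hearts differed among themselves more than the sham hearts. The SD of log2 values was larger in TAC-Veh than in Sham-Veh for 84.1% of genes. Over the 619 genes at least 2-fold higher, the median log2 ratio to the Sham-Veh mean was 1.76, 1.90, 1.21 and 1.30 in the 4 TAC-Veh libraries, and over the 449 lower genes it was -1.78, -1.67, -1.10 and -1.11. TAC-Veh 1 held the highest value of its group in 239 of the 619 genes and TAC-Veh 2 in 330, against 26 for TAC-Veh 3 and 24 for TAC-Veh 4. The lists did not all share this order: calcium handling had its weakest fall in TAC-Veh 4, at -0.13, and complement its weakest rise in TAC-Veh 1, at 0.27.

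**Figure D5:**
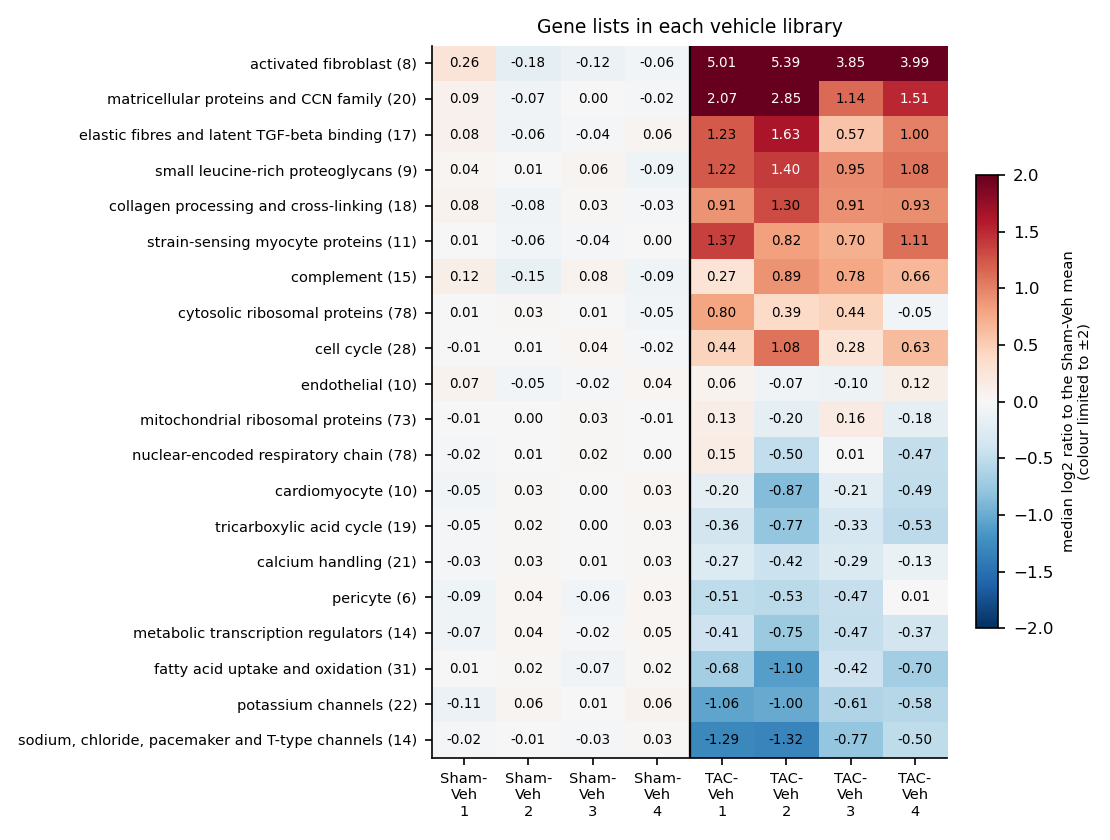
Median log2 ratio to the Sham-Veh mean over the tested members of 20 gene and marker lists, with the number of members in parentheses, in each of the 8 vehicle libraries. Colours are limited to 2 in both directions while the printed values are not; the matrix lists are highest in TAC-Veh 2, and cytosolic ribosomal proteins run from 0.80 in TAC-Veh 1 to -0.05 in TAC-Veh 4.

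The effect of TAC under vehicle was set against the effect of TAC under THZ1, which rests on 8 other mice. The difference passed an adjusted p of 0.05 for 1336 genes, 10.0% of those tested. Of the 619 genes at least 2-fold higher under vehicle 310 differed, and of the 449 lower ones 171, all with the larger effect under vehicle. Since these genes were picked for a large effect under vehicle, that direction is a description. The total moved with single libraries. Without TAC-Veh 3 the difference was called for 2479 genes, and without any 1 of Sham-Veh 2, 3 and 4, TAC-Veh 2, Sham-THZ1 1, 2 and 4 or TAC-THZ1 2 for 690 to 859. Among the 449 lower genes it was called for 93 to 113 without those libraries other than TAC-Veh 2.

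Counts per list stand beside 10.0% over all tested genes and 310 of the 619 genes at least 2-fold higher. The difference was called in 14 of 21 other collagens, 12 of 20 matricellular genes, 12 of 17 elastic fibre genes and 11 of 18 collagen-processing genes. In these 4 lists 8, 14, 9 and 10 genes were at least 2-fold higher under vehicle. It was called in 1 of 9 myosin and thick filament genes, near the share over all genes. Col1a1 had a log2 fold change of 1.11 under vehicle and -0.86 under THZ1 (difference 1.98, adjusted p = 0.00309), and Lox 3.82 and 0.17 (adjusted p = 0.00389). Nppa had 4.76 and 3.01 (difference 1.75, adjusted p = 0.0561) and Ankrd1 2.30 and 2.12 (adjusted p = 0.7), and for Myh7 the values were 4.24 and 3.19 (adjusted p = 0.324). Acta1 lay between, at 4.38 and 3.04, with a difference of 1.34 (adjusted p = 0.0195). In fatty acid oxidation 4 of 31 genes differed, also near the share over all genes, and in the nuclear respiratory chain 2 of 78. A miss of the threshold does not show that the 2 effects were alike.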

How the data were processed

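Messenger RNA of mouse ventricles was measured in 16 stranded libraries, 1 mouse each, 4 in each of 4 groups. The study's methods name both TruSeq Stranded mRNA and KAPA HyperPrep kits, without saying which served the mouse hearts. The deposited signal values are DESeq2 normalized counts: per the study's methods the authors aligned reads with TopHat 2.1.1 to mm9, counted them per GENCODE gene with htseq-count in reverse-stranded mode, and divided each of the 16 mouse libraries by 1 size factor. They are not divided by gene length. Every value was a whole multiple of its library's step (100% within 0.01 read), which gave reads and depth back. No label gives a batch, date or pairing, so p-values rest on the spread between mice as labelled. In limma that spread was pooled over all 16 libraries, although the groups were unequal. The median SD of log2 values was 0.098 in Sham-Veh and 0.218 in TAC-Veh.

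Genes at 10 normalized counts or more in at least 4 of 16 libraries were tested as log2(normalized count + 1) with limma 3.58.1 in R 4.3.3 (4 group means, eBayes with a trend, residual variance shared by all 16 libraries, Benjamini-Hochberg adjustment over 13331 genes). The 2-fold calls needed an absolute log2 fold change of 1 as well. A fold change of a named gene given without log2 is the ratio of the group means of normalized counts. The adjusted p beside it tests the log2 fold change of limma, which can differ from that ratio. Single shares per library were compared by exact two-sided permutation tests, 4 against 4. edgeR 4.0.16 and DESeq2 1.42.0 on recovered reads, other scalings, filters, pseudocounts and variance estimates, and each library left out in turn were alternatives. The limma step was tested on simulated data first. Per-kb values used summed exons of the mm9 annotation. Counting error alone stands behind the floor of 3 reads. Genes with near-identical copies may share reads.

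The gene lists and their members were chosen with earlier results of these data known. Genes to name were taken from the 15 with the largest change each way (adjusted p under 0.05, mean of 100 or more over the 8 vehicle libraries, no overlap), the 10 largest gains and losses, key genes of the lists, up to 4 members per list with the smallest adjusted p and up to 3 against the majority. A few genes that meet the rule are not reported here. Of 132 genes given with values, 28 fell outside that rule and were chosen after their values were seen.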

Additional observations from a re-analysis of the deposited data

Results flagged for a closer look

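Among 132 genes given with values, 264 groups of 4 libraries were looked at for 1 library far from its group, and 15 held one, and about 1 in 20 groups would be picked out by chance at the 95% critical value used.

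In the sham hearts Sham-Veh 1 was the high one for Ankrd1, at 44101.5 normalized counts, and it was also apart for Col8a1 at 1008.8, Wisp2 at 299, Mef2a at 4777 and Slc2a4 at 8777. Sham-Veh 3 was apart for Acaa2 at 15129, and Sham-Veh 4 for Hcn4 at 138, Grk5 at 664 and Cdk8 at 479. In the TAC hearts TAC-Veh 1 was far above the other 3 for Cdkn1a, the inhibitor of cyclin-dependent kinases, at 3080.4, for the receptor partner Fkbp5 at 3445, for the kinase Sgk1 at 5688 and for the metallothionein Mt2 at 6403. TAC-Veh 2 was apart for Xirp2, with 92832 normalized counts, and for Ndufs1, with 10025.

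Of the 6 genes set against the TAC effect under THZ1, 3 had a larger effect under vehicle by the limma test of the difference. The difference was 3.65 on the log2 scale for the cross-linking enzyme Lox, 1.98 for the collagen chain Col1a1 and 1.34 for the skeletal actin Acta1.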

How the results depend on the processing

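Of 132 named genes, 1 changed sign past the threshold: Actc1, at -0.02 on the log2 scale, was at 0.41 under quantile normalization. Genes at least 2-fold higher or lower were 374 and 285 when a mean of 50 normalized counts was required, which left 11394 genes to test, and 308 and 181 when the log2 fold change had to reach 1.5 either way. At an adjusted p under 0.01, 1902 genes rose. The other settings moved each of these 4 counts by less than 1.5 times. With each of the 16 libraries left out in turn, 2379 to 3051 genes rose, 2684 to 3376 fell, 543 to 707 were at least 2-fold higher and 388 to 541 at least 2-fold lower. The TAC effect differed from that under THZ1 in 690 genes without TAC-THZ1 2 to 2479 without TAC-Veh 3, in 217 to 368 of the higher and in 93 to 252 of the lower genes. The cause was not tested. The difference between groups in the share of Myh7 was 10.6 to 17.0 percentage points, of Acta1 27.6 to 32.6, of Slc2a1 5.37 to 8.003, and of the mitochondrial genome -5.22 to -2.18.

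The calls of 9 other named genes changed under at least 1 setting. Actn2 passed under quantile normalization at -0.18, and Plod1 missed the threshold with the 8 vehicle libraries alone (adjusted p = 0.0718). Mki67 and Pdgfra passed with DESeq2, and Fhl2 and Pdgfra with the exon length trend removed, a setting chosen after the data had been seen. Cdk7 and Cdk13 lost their calls in that setting, Cdk12 gained one without TAC-Veh 4 and Fkbp5 with DESeq2. With the replicate number as a block, 2767 genes rose and 3071 fell, and Pdgfra passed. Same-numbered Sham-Veh and TAC-Veh libraries deviated with correlations of -0.042, -0.116, 0.056 and 0.075, so the numbers were not taken to pair the mice. Over all genes, the median log2 fold change stayed between -0.023 and 0.065. Genes under 10 normalized counts in most libraries, 9041 in all, were too shallow to test.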

Other observations

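In a list of transcription kinases and cyclins, which also holds Polr2a and the kinases that THZ1 inhibits, 7 of 14 genes fell with TAC under vehicle and 2 rose, or 1 without Sham-Veh 2, 3 or 4 or TAC-Veh 1 or 2. The falls were 4 when libraries were scaled to their total outside the mitochondrial genome. Cdk7, the kinase of TFIIH, was at 689.5, 683, 666 and 685 normalized counts in Sham-Veh and 578, 606, 569 and 609 in TAC-Veh, a log2 fold change of -0.21 (limma adjusted p = 0.0144) with no overlap. Its cyclin Ccnh fell 1.32-fold (adjusted p = 0.000381). Cdk13 changed by -0.22 on the log2 scale (adjusted p = 0.00666) and Cdk12 by -0.21 (adjusted p = 0.0684), or by -0.28 and past the threshold without TAC-Veh 4. Under the scaling to the total outside the mitochondrial genome Cdk7 and Cdk13 kept their sign, at -0.14 and -0.15, but not their call. With the exon length trend removed both calls were lost as well, at -0.10 and -0.12. Cdk8, a kinase of the Mediator complex, rose by 0.31 on the log2 scale (adjusted p = 0.000973). Polr2a, the largest subunit of RNA polymerase II, was at 1456, 1686, 1286 and 1718 and then 827, 969.6, 726 and 1557 (adjusted p = 0.00448), which overlapped because TAC-Veh 4 lay within the sham range.

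Vasoactive peptides and second messengers were mixed. Of 12 genes of the endothelin, apelin and adrenomedullin systems 5 rose and 3 fell. The ligand Apln fell 2.32-fold while Ednrb, a receptor that clears endothelin, rose 1.68-fold (adjusted p = 0.000404 and 0.00285). Of 23 adrenergic and cyclic nucleotide genes 10 fell and 3 rose. Pde3a, a phosphodiesterase that degrades cyclic AMP, fell 2-fold, Adcy6, which makes it, 1.89-fold, and Grk5, a kinase that desensitizes adrenergic receptors, rose 1.78-fold (adjusted p = 1.58e-06, 2.28e-05 and 3.59e-05). Of 17 stress cytokines and cardiokines 8 rose, and 5 without Sham-Veh 2 or TAC-Veh 2. Fstl1, a secreted follistatin-like glycoprotein, went from 2901, 2196, 2698 and 2692 to 12565, 18654, 7750.2 and 8556 (4.53-fold, adjusted p = 2.1e-06), with TAC-Veh 3 and 4 the lower pair, and the growth factor Igf1 rose 2.7-fold (adjusted p = 3.82e-05).

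Of 18 integrins 8 rose. Itgbl1, an integrin beta-like protein, went from 387, 281, 257 and 276 to 3349.6, 3303, 1670.3 and 1859, an 8.48-fold rise without overlap (adjusted p = 1.24e-07). Of 16 clock genes 7 fell, or 4 with the 8 vehicle libraries fitted alone. Hlf, a transcription factor driven by the clock, went from 866, 1267, 919 and 959 to 247, 335, 546 and 494 (log2 fold change -1.36, adjusted p = 9.33e-05), and Nr1d2, a repressor of the clock, fell 1.53-fold (adjusted p = 4.74e-05). The times of day at which tissue was taken were not used here. Among stress response genes, the small heat shock protein Cryab rose from 32099.6 ± 1062 to 46322 ± 5764, and the stress transcription factor Atf3 from 90.2, 53.7, 56.6 and 78.1 to 653, 442, 229 and 193 (adjusted p = 0.000284 and 2.96e-05).

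TAC-Veh 1 stood apart in genes known to respond to glucocorticoid hormone. Fkbp5, a chaperone partner of the receptor, was at 3445, 485, 547 and 461 in TAC-Veh 1 to 4 and at 437, 553, 348 and 574 in Sham-Veh, with an adjusted p of 0.208 for the group difference. The kinase Sgk1 was at 5688, 1176, 1425 and 1184 in TAC-Veh against a Sham-Veh mean of 1360.4 ± 325, and the metallothionein Mt2 at 6403, 1082, 853 and 543 against 269 ± 27.8. In all 3 genes TAC-Veh 1 was the highest library by several fold, and TAC-Veh 2, 3 and 4 of Fkbp5 lay within the sham range. DESeq2 called Fkbp5, at 1.37 on the log2 scale. Of the 12 genes of this list 3 rose with limma and 5 with DESeq2. The cause was not tested.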
